A study of Leucocroton havanensis with 4 samples.

Results

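Among 65936 transcript contigs of Leucocroton havanensis, 71 were abundant in shoot and had a level there at least 4 times as high with nickel as without, while their level in root stayed within 2-fold between media and lay under 4 times that of shoot without nickel. The species, a shrub of the spurge family endemic to Cuba, hyperaccumulates nickel. The members were chosen on read counts per 1000000 counted reads of the library (CPM), with 0.1 CPM added to both sides of every ratio. A member had a mean CPM of 10 or more over the 2 shoot libraries, a ratio of 4 or more between shoot with and without nickel, a ratio under 4 between root and shoot without nickel, and a ratio above 0.5 and below 2 between root with and without nickel. All 4 libraries entered this choice, so the levels and ratios of the members are given as a description, without any test.

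The 4 groups were shoot without nickel, shoot with nickel, root without nickel and root with nickel. All came from plantlets raised in vitro for 6 weeks after germination on agar-solidified Murashige and Skoog medium, and roots and shoots were collected separately. The growth protocol names 500 mg/L NiSO4 and is worded alike for every sample, so this dose is taken to belong to the groups labelled with nickel. Each group had 1 polyA RNA library, the sources used here do not say how many plantlets stand behind a library, and no difference has a replicate check. The shoot library with nickel is labelled as a re-analysis of one from an earlier series and the other 3 carry no such label, so in every shoot ratio below the effects of nickel and of the origin of the library cannot be told apart.

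In plants that hyperaccumulate nickel, the metal is taken up by the root, moved through the xylem and stored in shoot tissues, mostly in vacuoles. Membrane transporters of several families, such as the ZIP and ferroportin families, and small ligands such as citrate, histidine and nicotianamine are known to take part in metal movement in plants. The deposited files pair the contigs with no gene name or sequence, so none of the members can be assigned to these or other functions. No marker of root or shoot could be checked for the same reason. Only 2 members are given by identifier, the one with the most reads in shoot with nickel and the one whose shoot ratio lay farthest above 1 beyond counting error.

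The libraries held 84917997 counted reads for shoot without nickel, 98108920 for shoot with nickel, 59802565 for root without nickel and 55660570 for root with nickel. A mean shoot level of 10 CPM was reached by 12620 contigs, called abundant here. Of these, 134 were 4-fold or more higher in shoot with nickel (1.06%) and 77 were 4-fold or more lower (0.610%). That balance rests on scaling by total counts. Scaling by TMM, a trimmed mean of ratios between libraries, gave 101 higher and 118 lower, and DESeq2 size factors gave 85 and 140. The median log2 shoot ratio of the abundant contigs was 0.09 by total counts, -0.17 by TMM and -0.29 by DESeq2 size factors. The median of the same 71 members stood 2.40 above it on the log2 scale under each of these scalings. That distance is built in, since rescaling a library shifts both medians nearly alike and the members were chosen on this ratio.

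The members took 0.1002% of the reads of shoot without nickel and 0.760% of those of shoot with nickel. The rule fixes the direction of that difference, as each member was chosen for a shoot ratio of at least 4. Their share was 0.143% in root without nickel and 0.150% in root with nickel. Each library is of a whole organ, so more cells of a type and more transcript per cell cannot be told apart. In shoot with nickel their CPM values ran from 16.7 through a median of 39.4 to 2074. In shoot without nickel the same contigs ran from 0.012 through 7.23 to 125 CPM. In root they ran from 0 to 248 CPM without nickel, with a median of 10.5, and from 0 to 256 CPM with nickel, with a median of 9.58. The median abundant contig stood at 27.8 CPM in shoot without nickel, 29.4 in shoot with nickel, 29.1 in root without nickel and 29.7 in root with nickel. In the libraries other than shoot with nickel, the median of the members was therefore below that of the abundant contigs. The limits on the shoot and organ ratios set this in part. CPM is not corrected for contig length, so an order by CPM is one of reads and not of transcripts.

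**Figure D1:**
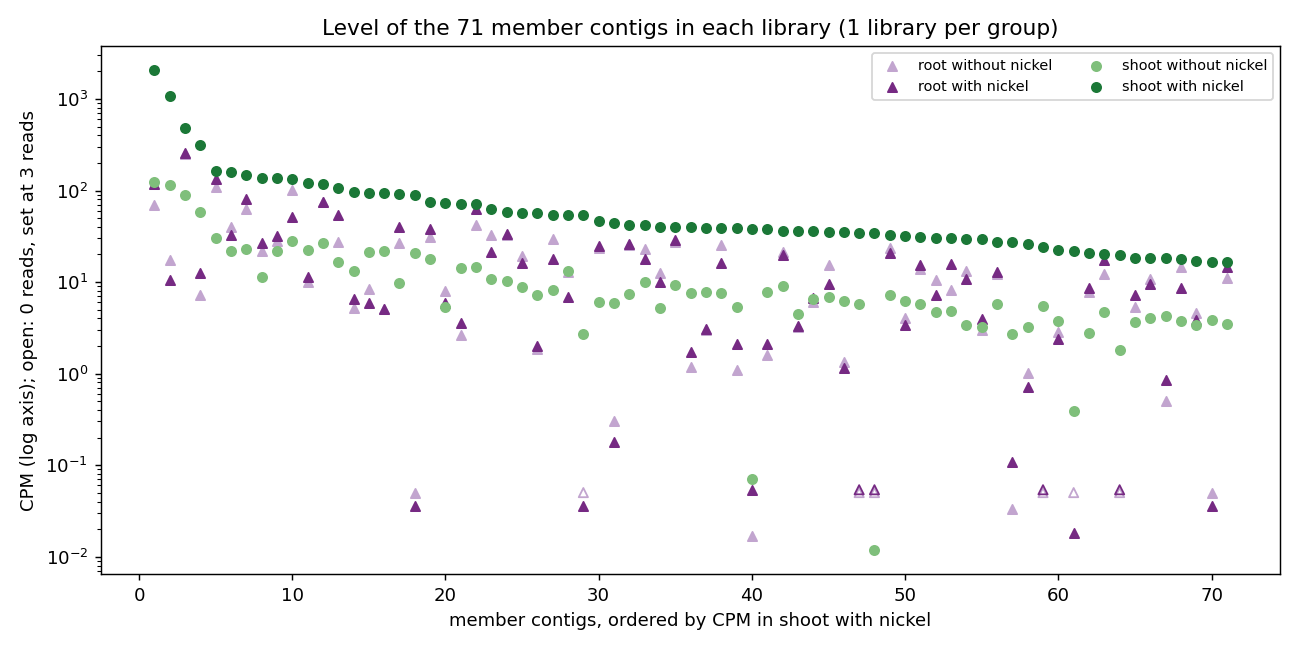
CPM (log axis) of the 71 members in each of the 4 libraries, ordered by CPM in shoot with nickel; each point is 1 contig in 1 library, and open symbols are counts of 0, drawn at a level of 3 reads. Shoot with nickel is the highest library for all 71, whereas the root points spread from 0 to 256 CPM.

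The member with the most reads was Lhav_v2_contig_553. It had 10624 reads (125 CPM) in shoot without nickel, 203434 (2074 CPM) in shoot with nickel, 4108 (68.7 CPM) in the root library without nickel and 6632 (119 CPM) in that with nickel. Shoot with nickel stood alone at the top, and the other 3 libraries lay within 2-fold of each other. The shoot count ratio was 16.6 (95% exact interval 16.3 to 16.9, counting error only). The root count ratio was 1.73 (1.67 to 1.80), so this contig also had more reads with nickel in root, beyond counting error. It alone held 27.3% of all member reads in shoot with nickel and 12.5% of those in shoot without nickel.

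The member with the second most reads had nickel ratios of opposite direction in the organs. In shoot it had 115 CPM without nickel and 1070 CPM with it, a count ratio of 9.29 (95% exact interval 9.10 to 9.49). Its root levels were 17.3 CPM without and 10.4 CPM with nickel, and the interval of its root ratio, 0.544 to 0.669, lay below 1. These 2 contigs held 41.3% of the member reads in shoot with nickel and 6.03% of those in root without nickel.

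The next members in the same order differed mainly in their root level. The third had 90.0 CPM in shoot without nickel, 487 CPM in shoot with nickel, and 248 and 256 CPM in root without and with it. Its root level was thus already above that of shoot without nickel, and shoot with nickel exceeded root with nickel by less than 2-fold. The fourth had 58.3 CPM in shoot without nickel, 312 with it, against 7.27 and 12.6 CPM in root without and with nickel. The fifth had 30.6, 165, 110 and 133 CPM in shoot without nickel, shoot with nickel, root without nickel and root with nickel. In it, shoot with nickel was 1.24 times the next highest library. The 10 members with the most reads held 63.5% of the member reads in shoot with nickel and 49.5% in root without nickel.

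Most shoot ratios lay close above the limit of 4. Of the 71 members, 25 had a ratio from 4 to under 5, 16 from 5 to under 6, 17 from 6 to under 8, 8 from 8 to under 16, 2 from 16 to under 32 and 3 of 32 or more. The median ratio was 5.60, and the interquartile range was 4.77 to 7.42. The exact lower limit of the count ratio was itself at 4 or above for 63 members. The weakest member had a ratio of 4.005 and the nearest contig left out by that limit alone 3.98. For the mean shoot level, the nearest values were 10.1 CPM inside and 9.79 CPM outside. A fold of 8 or more was kept by 13 members.

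The 3 members with ratios of 32 or more were nearly confined to shoot with nickel. Lhav_v2_contig_5696 had 1 read in shoot without nickel (0.012 CPM), 3372 in shoot with nickel (34.4 CPM) and 0 in both root libraries. The count ratio in shoot was 2919 with a 95% exact interval of 523 to 115313, and the ratio with 0.1 CPM added was 308. A count of 0 allows up to 0.050 CPM without nickel and 0.054 CPM with nickel in root, taking 3 reads as the floor, and these limits cover counting error only. With both roots at 0, its root ratio of 1.00 comes from the added 0.1 CPM and says nothing of nickel in root. Another of the 3 had 6 reads in shoot without nickel, 3765 in shoot with nickel, 1 in root without nickel and 3 in root with nickel. Its count ratio in shoot was 543 (95% exact interval 249 to 1481). The last had 33 reads in shoot without nickel, 2124 in shoot with nickel, 0 in root without nickel and 1 in root with nickel, a shoot count ratio of 55.7 (39.5 to 81.1).

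Ratios of that size were reached by 20 abundant contigs (0.158%). Of these, 15 had a root level 4-fold or more above shoot without nickel and are not members, 2 were left out for their root ratio, and 3 were the members just described. Shoot with nickel exceeded each of the other 3 libraries by 32-fold or more in 5 abundant contigs, 3 of them members. By the same measure at 4-fold there were 55 of the 12620 abundant contigs, of which 36 were members. The choice of members sets much of this overlap, since exceeding shoot without nickel by 4-fold is one of its limits. Nickel and the origin of the library coincide in shoot. They cannot be told apart as sources of the many reads in shoot with nickel and the few elsewhere.

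**Figure D2:**
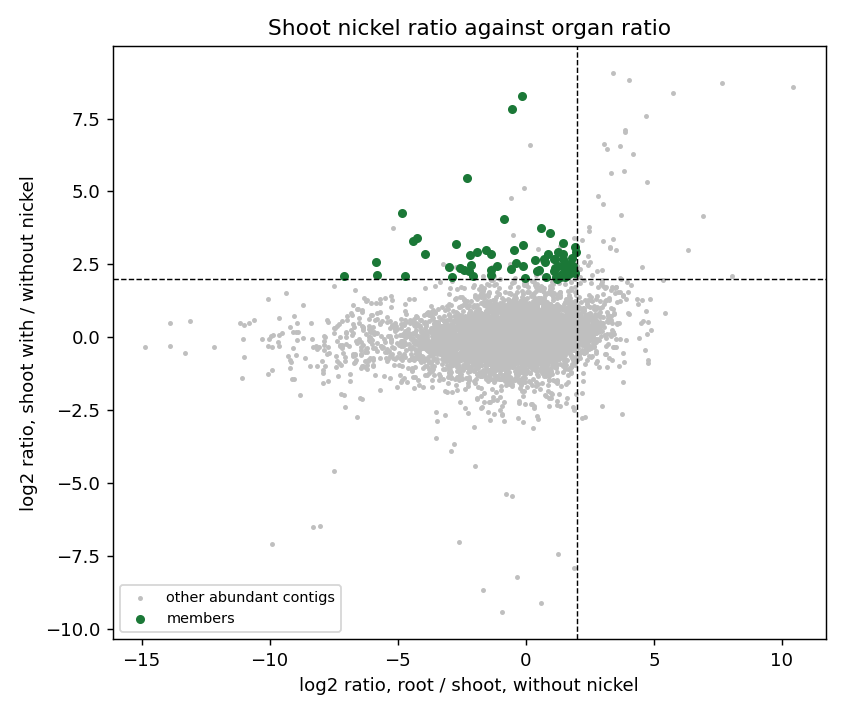
Log2 ratio of shoot with to without nickel (vertical) against log2 ratio of root to shoot without nickel (horizontal) for the 12620 abundant contigs, 1 point per contig, with the 71 members in green and the limits of 4 as dashed lines. The members reach from far left (root nearly 0) to the organ limit, and most contigs above a log2 shoot ratio of 5 lie to the right of that limit.

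Across organs the members covered 3 kinds of pattern, separated here by the ratio of root to shoot without nickel. The ratio was 1 to under 4 in 38 members (53.5%), 0.25 to under 1 in 15 and under 0.25 in 18 (25.4%). Among all abundant contigs, 49.4% lay from 1 to under 4, 35.8% from 0.25 to under 1, 11.0% under 0.25 and 3.77% at 4 or more. Members with a ratio under 0.25 were thus more frequent than such contigs in the background. However, the shoot library without nickel enters this ratio and the choice of members alike, and the rule leaves out ratios of 4 or more. Over all 134 contigs raised in the nickel shoot, 15.7% lay under 0.25 and 32.8% at 4 or more. Another 17.2% lay from 0.25 to under 1, and 34.3% from 1 to under 4. The limit of 4 fell within a run of values: 12 members had a ratio of 3 or more, and the values on both sides of it were 3.87 and 4.01.

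The 38 members with root above shoot without nickel had median levels of 7.94 CPM in shoot without nickel, 42.1 in shoot with nickel, 23.1 in root without nickel and 18.8 in root with nickel. Their shoot ratios ran from 4.005 to 13.4 with a median of 5.40, and none of them had a ratio near those of the 3 extreme members. In this class shoot with nickel came up to or past the root level, and the median ratio of root to shoot with nickel was 0.478. The smallest lead of shoot with nickel over the next library was 1.13-fold, in a contig with 14.5 CPM in shoot without nickel, 70.97 in shoot with nickel, 41.5 in root without nickel and 62.6 in root with nickel.

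The 18 members with root under 0.25 of shoot without nickel were shoot contigs in both media. Their median levels were 5.84 CPM in shoot without nickel, 38.3 in shoot with nickel, 0.401 in root without nickel and 0.521 in root with nickel. Their shoot ratios ran from 4.19 to 44.5 with a median of 5.48. In 8 of them both root libraries held under 10 reads. One example had 1750 reads in shoot without nickel, 8710 in shoot with nickel, 3 in root without nickel and 2 in root with nickel, and a shoot count ratio of 4.31 (95% exact interval 4.09 to 4.54). Another had 232 reads in shoot without nickel, 5261 in shoot with nickel, 0 in root without nickel and 2 in root with nickel, with a shoot count ratio of 19.6 (17.2 to 22.5).

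The 15 members between these classes had median levels of 6.58 CPM in shoot without nickel, 38.4 in shoot with nickel, 3.26 in root without nickel and 3.36 in root with nickel. Their median shoot ratio was 7.20. Both named contigs belong here, Lhav_v2_contig_553 with a ratio of root to shoot without nickel of 0.549 and Lhav_v2_contig_5696 with one of 0.895. The latter value compares 0 reads with 1 and comes from the added 0.1 CPM. Levels below 1 CPM in both root libraries were found for 12 members in all (16.9%), against 254 of the abundant contigs (2.01%).

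With nickel, the organ order of the members differed from that without nickel. Root was above shoot in 38 of 71 members without nickel and in 0 with nickel. The median ratio of root to shoot was 1.44 without and 0.203 with nickel, against 1.06 and 1.02 over the abundant contigs. With nickel, 39 members stood under 0.25 (10.9% of the abundant contigs did so), 15 from 0.25 to under 0.5 and 17 at 0.5 or above, up to 0.882. Shoot with nickel was the highest library in all 71 members, beyond counting error against both roots, compared with 30.4% of the abundant contigs. The limits on the members force most of this order, since a root level under 4 times shoot without nickel and a shoot ratio of at least 4 leave little room for root to be higher. A shoot ratio of at least 4 and a root ratio below 2 also force a lower ratio of root to shoot with nickel in every member. The lead of shoot with nickel over the next highest library was 4-fold or more in 36 members. In 33 of these, root without nickel was below shoot without nickel. For the 18 of them with that ratio under 0.25, the rule itself sets a lead of at least 4-fold. For the other 15 it sets a lead of over 2-fold, as root with nickel may lie up to 2-fold above root without nickel. In the 38 members with root above shoot without nickel, the lead was 4-fold or more in 3 and 2-fold or more in 15, with a median of 1.90. The lowest library was shoot without nickel in 38 members, root without nickel in 23 and root with nickel in 10.

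**Figure D3:**
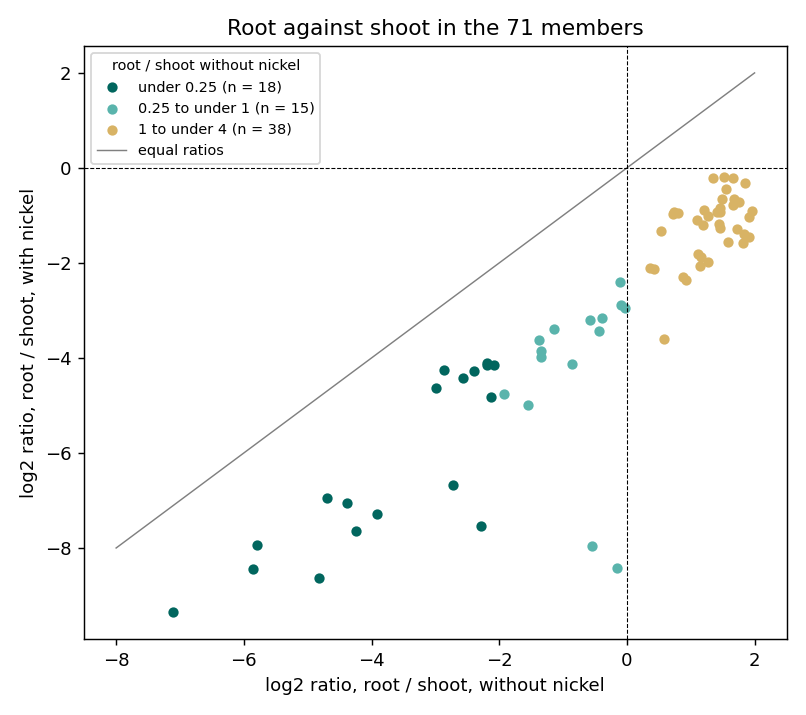
Log2 ratio of root to shoot with nickel (vertical) against the same ratio without nickel (horizontal) for the 71 members, coloured by class, with the line of equal ratios in grey. All points lie below that line, as the limits on the shoot and root ratios force, and below a vertical value of 0. The 38 members with root above shoot without nickel range from 0.082 to 0.882 as a ratio. They overlap the class from 0.25 to under 1, which reaches 0.190.

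In root the members showed no common direction with nickel. The rule holds this ratio between 0.5 and 2, as it was in 98.0% of the abundant contigs. Within these limits 39 members had more with nickel, 28 had less (47.6% of the abundant contigs did), and 4 had 0 reads in both root libraries and a ratio fixed at 1. The median ratio was 1.03 and the interquartile range 0.829 to 1.29, compared with 1.01 and 0.898 to 1.14 over the abundant contigs. The counting interval lay above 1 in 24 members and below 1 in 20, against 35.8% and 32.4% of the abundant contigs. With counts halved, since both reads of a pair may have been counted, these numbers were 16 and 17, against 29.5% and 27.1%. In 10 members neither root library reached 10 reads, so the limit on the root ratio says little about them.

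Some members lay close to the root limits. The highest root ratio was 1.98, in a contig with 27.2 CPM in root without and 53.8 CPM in root with nickel, which stood at 16.5 and 106 CPM in shoot. The nearest contig left out above had a ratio of 2.13. The lowest was 0.510, in a contig with 100 CPM in root without and 51.0 CPM in root with nickel, at 28.0 and 134 CPM in shoot. The nearest one left out below had 0.421.

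Before the root limit was applied, 90 abundant contigs met the shoot and organ limits. Of these 71 (the members) had a root ratio above 0.5 and below 2, 11 had 0.5 or less and 8 had 2 or more. Over all abundant contigs, 1.16% had 0.5 or less and 0.880% had 2 or more, so root ratios beyond 2-fold were more frequent among contigs raised in the nickel shoot, in both directions. The 44 raised contigs with root 4-fold or more above shoot without nickel gave 3 and 4 in the same order. The 77 lowered contigs gave 7 and 8, and the 38 of them under the organ limit with nickel gave 7 and 0. Of the 19 contigs left out by the root limit, 16 had at least 100 reads in the root library where they were higher, and the counting interval of the root ratio excluded 1 in all 19.

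**Figure D4:**
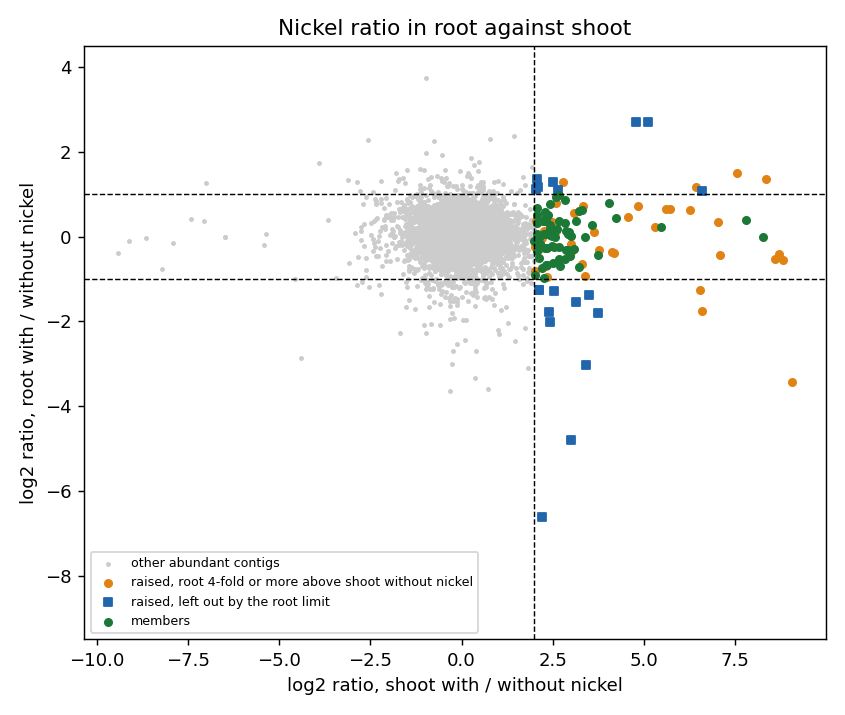
Log2 ratio of root with to without nickel (vertical) against log2 ratio of shoot with to without nickel (horizontal) for the abundant contigs, 1 point per contig. Green points are the 71 members, blue squares the 19 raised contigs left out by the root limit (dashed lines at 2-fold), and orange points the 44 raised contigs with root 4-fold or more above shoot without nickel; the members lie on both sides of 0 in root.

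Contigs that met the same limits except that root was 4-fold or more above shoot without nickel numbered 37. Their median levels were 4.55 CPM in shoot without nickel, 43.2 in shoot with nickel, 49.5 in root without nickel and 53.8 in root with nickel. Their median shoot ratio was 8.45, compared with 5.60 for the members, and 9 of 37 reached 32-fold, compared with 3 of 71. With nickel, root remained above shoot in 14 of the 37 and in 0 of the 71. The organ limit that separates these sets largely decides this, since both share the limits on the shoot and root ratios. A high organ ratio and a high shoot ratio share the library of shoot without nickel, and with 1 library per group these differences could not be tested.

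The same rule turned to contigs lowered in the nickel shoot gave 31. For these, the organ limit was placed on the libraries with nickel, where their shoot level was the lower one. Their median fold was 5.21 lower with nickel, close in size to the members' median of 5.60 higher, and their median levels were 45.1 CPM in shoot without nickel, 7.99 in shoot with nickel, 10.3 in root without nickel and 10.4 in root with nickel. The order of 71 and 31 depended on the scaling, with 56 and 51 by TMM and 47 and 64 by DESeq2 size factors. Of the 71 members, 52 were selected again by TMM and 42 by DESeq2 size factors.

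Likeness among members was looked at by contig number and by profile. Contig numbers next to each other occurred for 1 pair (2 members). Of the 71 members, 3 had a neighbour in number among the 134 raised contigs, and that pair made up 2 of the 3. Such a neighbour was found for 1.498% of the abundant contigs. What the numbering follows is not stated in the labels or files. A profile within 1.2-fold of another contig's in all 4 libraries was found for 6 members, in 4 cases with another member, against 89.7% of the abundant contigs. At 1.5-fold, 42 of the 71 members had another member of like profile, so this count depends on the tolerance. The limits of the rule bring the members' profiles closer to each other. They also set the members apart from most contigs, as only 1.06% of the abundant contigs were 4-fold or more higher in shoot with nickel. The contrast with 89.7% therefore follows at least in part from the choice of members. Sequences were not used here. Across the 71 members, the CPM in shoot with nickel correlated with that in root without nickel with Spearman's rho of 0.54. This describes points that share the same 2 libraries. A positive value is partly built in, since the shoot and organ limits together hold root without nickel below shoot with nickel in every member.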

How the data were processed

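RNA was sequenced from 4 samples, 1 per group. Per the labels' protocols, samples kept in RNAlater gave TRIzol LS extracts that were DNase-treated, from which stranded polyA libraries were built with an Illumina TruSeq kit. The authors deposited, per the file headers, 1 read count per contig and library, in whole numbers that were not normalized. The aligner, counting method, assembly and treatment of reads shared by like contigs were not given in the sources used here.

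Counts were divided by the column total and multiplied to CPM, 0.1 CPM was added before each ratio, and no filter on low counts preceded the choice of members. Ratios of 2 counts have exact 95% conditional binomial intervals (Clopper-Pearson), and a count of 0 has a floor of 3 reads. These cover counting error only. With 1 library per group no test was made. Selection and intervals were tried on simulated counts with counting error only. Every library had the same mean profile there, apart from set changes in shoot with nickel. This checks the calculation and says nothing of variation between plants, organs or library origins. Alternatives were TMM (edgeR 4.0.16) and DESeq2 1.42.0 size factors (R 4.3.3), 0.5 or 1 CPM added, thinning, and other limits. Named contigs were the member with the highest CPM in shoot with nickel and the one with the highest lower limit of the shoot ratio. The members, classes and lists were chosen with earlier results of these data known. Python 3.11.15, pandas 2.3.3 and scipy 1.17.1 were used.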

Additional observations from a re-analysis of the deposited data

Results flagged for a closer look

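The members with less in root and more in shoot with nickel are listed because the nickel ratio had opposite directions in the organs. There were 28 of these among the 71 members, by total counts and the ratio with 0.1 CPM added. That share was below the 47.6% of the abundant contigs with a root ratio below 1. The number holds for total counts only, as the members' median log2 root ratio was 0.040 by total counts, -0.097 with TMM and -0.090 with DESeq2 size factors. The counting interval of the root ratio lay below 1 in 20 of the 28, and in 17 with halved counts. As shares of the 71 members, these too were below those of the abundant contigs, 32.4% and 27.1%. However, the members had fewer root reads, with a median of 10.5 CPM without nickel against 29.1 CPM, and lower counts give wider intervals. Among raised contigs under the organ limit, the root limit had also left out 11 with a root ratio of 0.5 or less and 8 with 2 or more. The difference in direction between the organs was not tested, as each group had 1 library, and the rule kept the root ratio above 0.5.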

How the results depend on the processing

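The number of members, 71, was 47 with DESeq2 size factors, 13 with an 8-fold threshold, 121 with a mean shoot minimum of 5 CPM and 46 with one of 20 CPM. The other alternatives gave 54 to 90 members. The 31 contigs lowered by the same rule became 51 with TMM, 64 with DESeq2 size factors, 6 with an 8-fold threshold, 47 with a minimum of 5 CPM and 19 with one of 20 CPM. With the exact limit of the shoot ratio set against the threshold, 63 members remained, and 60 with halved counts. The median log2 shoot ratio of the members (2.49) was 2.23 with TMM, 2.11 with DESeq2 size factors, 2.42 with 0.5 CPM added, 2.39 with 1 CPM added and 2.49 after thinning each library to the smallest total. The median log2 root ratio (0.040) was -0.097 with TMM, -0.090 with DESeq2 size factors and 0.026 with 1 CPM added, and relative to all abundant contigs it was 0.053 with both scalings. The median log2 ratio of root to shoot without nickel (0.53) was 0.32, 0.25, 0.49, 0.44 and 0.49 in the order given for the shoot ratio. Lhav_v2_contig_553 kept a log2 shoot ratio between 3.67 and 4.05. That of Lhav_v2_contig_5696 (8.27) was 6.09 with 0.5 CPM added and 5.13 with 1 CPM, as it rests on 1 read. No paired analysis was possible because each group holds 1 library and the groups share only replicate number 1. No replicate could be left out, as each is the whole of its group. Intervals cover counting error only, and depth limits the root ratios of the 10 members with under 10 reads in both roots.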
